A study of Mus musculus with 24 samples.

Results

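Trp63, its relative Trp53, the regulator Mdm2 and the p53 family targets Cdkn1a, Ccng1, Sesn1, Sesn2, Gadd45a, Zmat3 and Perp were followed in mouse tibialis anterior (TA) muscle, 10 of the 55487 genes listed in the count files. The members were chosen by name around Trp63, which was itself selected on its measured level in fatigued PBMT and fatigued control muscle in these data. For this reason the comparison of those groups is given as a description, with no p for any member. The counts of genes called in it belong to that description and are no test of the members. Every comparison of Trp63 levels that uses fatigued mice is likewise a description. The question was whether the p53 family targets follow Trp63 in fatigued muscle.

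RNA came from the left TA of 24 male wild-type C57BL/6J mice, 5 to 7 weeks old, with 6 mice in each of 4 groups that crossed exercise state (sedentary or fatigued) with treatment (PBMT or control). PBMT (photobiomodulation therapy) was an exposure of anesthetized mice to 830 nm light for 20 min, at 25 mW/cm^2 and 30 J/cm^2, and control mice were shaved and anesthetized for 20 min without light. Muscle was taken 24 h later, either from sedentary mice or from fatigued mice that had just run on a treadmill to exhaustion. Sequencing ran as a project of 12 libraries for each exercise state, so that exercise state and sequencing project cannot be told apart. The summed counts of a mouse were 43271093 to 46904076 for sedentary controls, 46327516 to 52775844 for sedentary PBMT mice, 56792327 to 68726155 for fatigued controls and 53122528 to 68566029 for fatigued PBMT mice. Levels are CPM, that is counts scaled to a common normalised library total, and changes are log2 ratios. A change is called where its p, adjusted over all genes tested, was under 0.05.

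The p53 family consists of the transcription factors p53, p63 and p73, which bind related DNA sequences as tetramers. p53 is held at a low level by the ubiquitin ligase Mdm2, itself a p53 target, and upon DNA damage or metabolic stress it raises genes of cell cycle arrest, repair and apoptosis. p63 is known best for its role in stratified epithelia such as skin, where it maintains basal keratinocytes, and has also been studied in the survival of germ cells and in heart and skeletal muscle.

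All 10 members passed the filter on low counts in the fit to all 24 mice, as did 15108 genes in total. Per kilobase of exon, the mean level over the 24 mice was highest for Ccng1, at 258 CPM per kb (SD 38.4). Gadd45a followed at 20.96 CPM per kb (SD 5.45), Mdm2 at 11.7 (SD 0.899), Sesn1 at 8.50 (SD 1.89) and Cdkn1a at 7.47 (SD 2.78), and the last pair overlapped widely. Trp53 stood at 1.83 CPM per kb (SD 0.249). Perp (0.846, SD 0.298), Trp63 (0.840, SD 0.477), Sesn2 (0.773, SD 0.136) and Zmat3 (0.768, SD 0.0984) formed the low end in CPM per kb and did not differ beyond their spread. The highest mouse exceeded the lowest 5.15-fold for Trp63 and 5.03-fold for Perp, 4.00-fold for Cdkn1a and 3.35-fold for Gadd45a, but 1.36-fold for Mdm2.

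Trp63 (ENSMUSG00000022510, chr16:25683763-25892102, GRCm38) encodes p63, and its level was higher in fatigued than in sedentary muscle. In sedentary controls its lowest, median and highest values were 3.10, 3.62 and 5.41 CPM, and in sedentary PBMT mice 3.62, 4.17 and 5.31 CPM. In fatigued controls they were 5.37, 7.38 and 8.45 CPM, and in fatigued PBMT mice 8.18, 13.4 and 16.0 CPM. The sedentary groups overlapped fully, 5 of 6 fatigued controls lay above the highest sedentary control, and 5 of 6 fatigued PBMT mice lay above the highest fatigued control. The exception among the fatigued PBMT mice was replicate 2, at 8.18 CPM. These values rest on 143 to 245 counts per mouse in sedentary controls and on 467 to 1087 in fatigued PBMT mice.

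The log2 difference of Trp63 between fatigued PBMT and fatigued control muscle was 0.89 (standard error 0.164, n = 6 mice per group), given as a description. Between fatigued and sedentary mice it was 0.83 (standard error 0.165) among controls and 1.58 (standard error 0.165) among PBMT mice, and the PBMT effect was 0.75 (standard error 0.232) larger in fatigued than in sedentary muscle. In sedentary muscle, which did not enter the choice of Trp63, PBMT and control mice differed by 0.14 (standard error 0.157, edgeR adjusted p = 0.809). In bulk tissue, more cells that express a gene and more RNA of it per cell cannot be told apart.

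**Figure D1:**
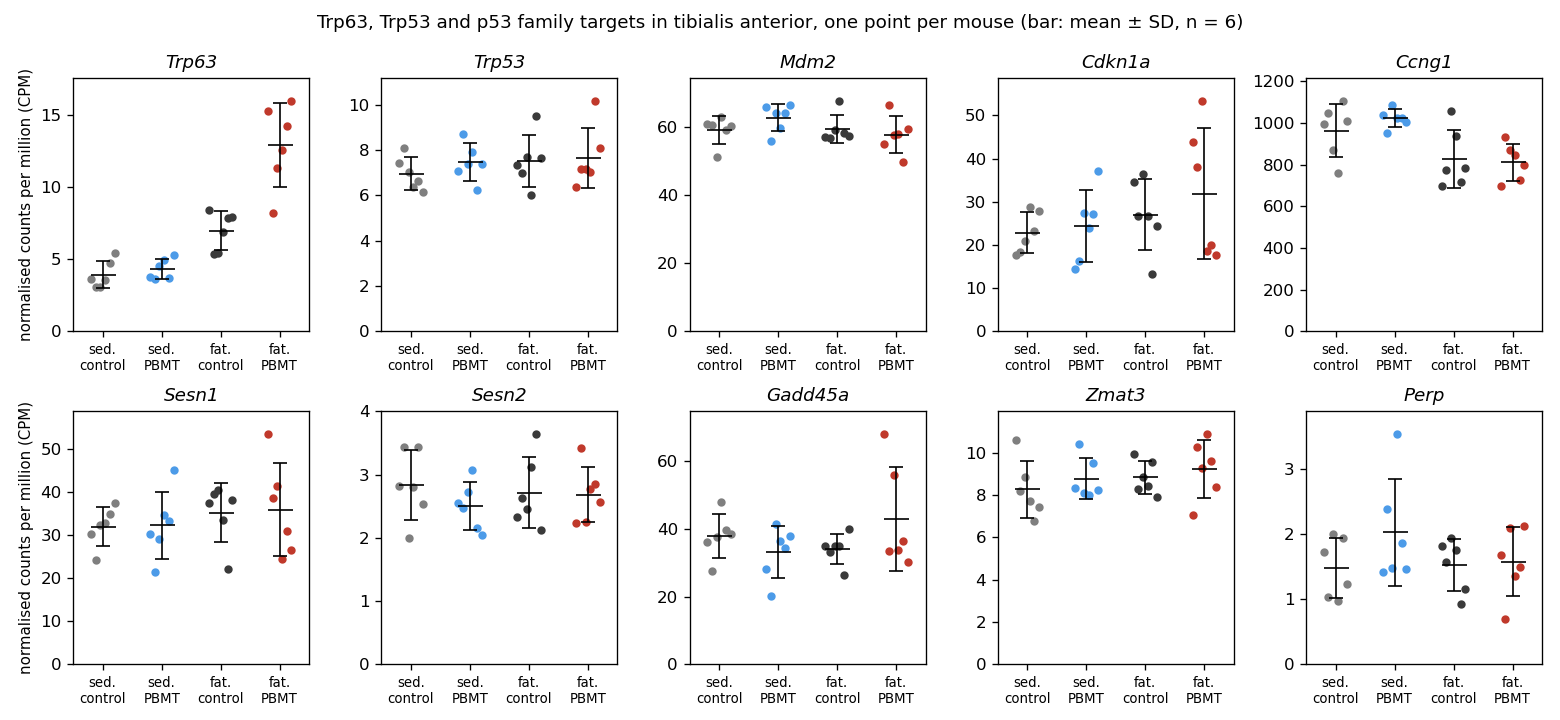
Level of each of the 10 genes (y axis, CPM, from 0) in 24 mice (points) of 4 groups (x axis, sedentary or fatigued, control or PBMT), with the mean and SD of 6 mice as bars. Trp63 reached 8.18 to 16.0 CPM in fatigued PBMT muscle, against 3.10 to 5.41 CPM in sedentary controls, while Cdkn1a and Gadd45a varied widely between mice of the same group.

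Trp53 (chr11:69580359-69591873), the gene of p53, stayed near a single level. Its median was 6.83 CPM in sedentary controls, 7.40 in sedentary PBMT mice, 7.50 in fatigued controls and 7.17 in fatigued PBMT mice, and single mice ranged from 6.02 to 10.2 CPM. The third family gene, Trp73, was at 0 to 8 counts per mouse and was not tested. Mdm2 (chr10:117688875-117710758) was the least variable member, with medians of 60.3, 64.1, 57.8 and 57.7 CPM in the same order of groups and single mice from 49.7 to 67.4 CPM. In no comparison of groups tested here did Trp53 or Mdm2 pass the threshold.

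Cdkn1a (chr17:29090976-29100727) encodes p21, the cyclin-dependent kinase inhibitor through which p53 arrests the cell cycle. Its lowest, median and highest values were 17.6, 22.1 and 28.8 CPM in sedentary controls, 14.4, 25.5 and 37.0 CPM in sedentary PBMT mice, 13.3, 26.7 and 36.4 CPM in fatigued controls and 17.7, 29.0 and 53.2 CPM in fatigued PBMT mice. The fatigued PBMT mice were split, with replicates 1, 2 and 3 at 43.8, 38.1 and 53.2 CPM, all above the highest fatigued control, and the other 3 at 17.7 to 19.9 CPM. Trp63 did not divide the mice in this way, since it stood at 15.3, 8.18 and 11.3 CPM in replicates 1, 2 and 3 and at 12.6, 14.2 and 16.0 CPM in replicates 4, 5 and 6.

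Gadd45a (chr6:67035096-67037457), a stress-induced gene of growth arrest and DNA repair, ran from 27.6 to 48.0 CPM in sedentary controls (median 38.1), from 20.2 to 41.3 in sedentary PBMT mice (median 35.4), from 26.4 to 40.0 in fatigued controls (median 34.9) and from 30.3 to 67.8 in fatigued PBMT mice (median 35.1). The upper end of the last group came from replicates 1 and 3, at 67.8 and 55.7 CPM, which were also among the 3 mice of that group with the most Cdkn1a. Exons of Gadd45a overlap those of E230016M11Rik on the opposite strand. That gene had a median of 14.5 counts against 1901.5 for Gadd45a, and the strand setting of the counting is not given in the sources used here.

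Ccng1 (chr11:40748552-40755311) encodes cyclin G1, a p53 target that recruits a phosphatase to Mdm2, and was the most abundant member. Its lowest, median and highest values were 759, 1002 and 1104 CPM in sedentary controls, 953, 1024 and 1088 CPM in sedentary PBMT mice, 699, 780 and 1059 CPM in fatigued controls and 698, 824 and 932 CPM in fatigued PBMT mice. Every fatigued PBMT mouse lay below every sedentary PBMT mouse, whereas among controls the groups overlapped, with 2 of 6 fatigued mice below the lowest sedentary one.

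Sesn1 (chr10:41809935-41908424) and Sesn2 (chr4:132492032-132510501) encode sestrins, stress-induced inhibitors of mTORC1 signalling. Sesn1 had medians of 32.5 and 31.7 CPM in sedentary control and PBMT mice and of 37.9 and 34.7 CPM in the fatigued ones, and ranged from 21.5 to 53.4 CPM over single mice. Within the fatigued PBMT group its 3 highest values, 53.4, 38.5 and 41.4 CPM, belonged to replicates 1, 2 and 3, the mice with the most Cdkn1a. Sesn2 was low, from 1.99 to 3.64 CPM over the 24 mice.

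Zmat3 (chr3:32334792-32366014), the gene of an RNA-binding zinc finger protein, ran from 6.79 to 10.9 CPM. Perp (chr10:18845020-18857073), a membrane protein of desmosomes that both p53 and p63 activate in other tissues, ran from 0.701 to 3.53 CPM, on 40 to 179 counts. For Sesn1, Sesn2, Zmat3 and Perp all 4 groups overlapped.

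Compared with controls, sedentary PBMT muscle showed no called change in the 9 members other than Trp63. None of the 9 had an adjusted p under 0.05 in edgeR, against 0.0282% of all 14177 genes tested, and none reached an unadjusted p under 0.05 or was called by DESeq2. Their log2 changes lay between -0.19 (Gadd45a, standard error 0.150) and 0.46 (Perp, standard error 0.258), and the median of all 10 members was 0.09 against 0.00 for all genes tested. Every one of the 9 intervals (95%) held 0. The value of Perp was 0.22 without sedentary PBMT replicate 4, the mouse with the most Perp (3.53 CPM). That mouse also had the highest sum of 10 keratinocyte markers (32.6 CPM, led by Krt10 in its group), and replicate 2, next in Perp (2.39 CPM), the next highest (11.6 CPM), against 1.78 to 2.82 CPM in the other 4. The part of these cells was not tested.

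In fatigued muscle the log2 differences between PBMT and control mice are a description. They lay between -0.04 (Mdm2) and 0.33 (Gadd45a, standard error 0.192) for the 9 members other than Trp63, with 0.24 for Cdkn1a (standard error 0.321) and -0.03 for Ccng1 (standard error 0.106). None of the 9 was called, against 0% of all 14574 genes tested in edgeR, where 230 genes had an unadjusted p under 0.05 and DESeq2 called 2 genes. The median over the 10 members was 0.04, and over all genes tested 0.00. Leaving out a mouse took the value of Cdkn1a to between 0.03 and 0.36, the lowest without fatigued PBMT replicate 3, and that of Gadd45a to between 0.15 and 0.42. The PBMT effect was called as different between the exercise states for 0 of the 9 members, against 0.00662% of 15108 genes in edgeR, with none of the 9 at an unadjusted p under 0.05 and none called by DESeq2. It was largest for Gadd45a, at 0.53 (standard error 0.262, adjusted p = 0.946 in edgeR).

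Fatigued and sedentary muscle were compared next. Among control mice, 0 of the 9 members other than Trp63 were called, against 18.6% of 15108 genes in edgeR, 1 of the 9 had an unadjusted p under 0.05 and DESeq2 called none. Ccng1 came closest, lower by a log2 change of -0.22 (standard error 0.0986, edgeR adjusted p = 0.124). It passed the threshold when fatigued control replicate 3 was left out (-0.29, edgeR adjusted p = 0.0380) or sedentary control replicate 4 (-0.28, edgeR adjusted p = 0.0291), among adjusted p-values of 0.0291 to 0.264 over all alternatives. In none of the 9 were the fatigued and sedentary control mice separate, where 7.7% of all genes tested did not overlap.

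Among PBMT mice, 1 of the 9 members was called, against 26.8% of 15108 genes in edgeR. This was Ccng1, which fell by a log2 ratio of 0.33 (standard error 0.0987, edgeR adjusted p = 0.0139) and was lower in 6 of 6 fatigued mice. It passed in every alternative, with adjusted p-values from 0.00554 to 0.0452. Ccng1 was also the 1 member of the 9 whose groups did not overlap, against 11.2% of all genes tested. Gadd45a was higher by 0.37 (standard error 0.185, edgeR adjusted p = 0.142) and Cdkn1a by 0.39 (standard error 0.287, edgeR adjusted p = 0.342), and Perp was lower, at -0.36 (standard error 0.264, edgeR adjusted p = 0.334), none of them called. Single mice moved these values, Gadd45a to 0.20 without fatigued PBMT replicate 1, Cdkn1a to 0.18 without fatigued PBMT replicate 3 and Perp to -0.12 without sedentary PBMT replicate 4. The median change of the 9 was 0.04 among controls and 0.08 among PBMT mice, and that of all genes tested -0.01 and 0.00. The comparisons among controls and among PBMT mice use different mice but share the difference between the projects.

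To ask whether the members followed Trp63 from mouse to mouse, the slope of each gene on the log2 CPM of Trp63, centred within each group, was tested across all genes. This measure does not use the difference between groups for which Trp63 was chosen. In the 12 fatigued mice, 0 of the 9 members were called, against 0% of 14573 genes in edgeR, where the smallest adjusted p was 0.388. At an unadjusted p under 0.05 there were 1 of the 9 members and 1445 genes, and DESeq2 called 35 genes and none of the members. The slope was above 0 in 3 members (Trp53, Gadd45a and Perp) and below 0 in 6, with a median of -0.17 against 0.03 for all genes tested. It was lowest for Cdkn1a, at -0.64 per log2 unit of Trp63 (standard error 0.533), and highest for Perp, at 0.39 (standard error 0.465). Of the 9 signs only that of Zmat3 (-0.15, standard error 0.173) held in every alternative, those in sedentary mice included. In fatigued mice alone the sign turned for 4 members. Perp was at -0.38 and Sesn2 at 0.0941 without fatigued PBMT replicate 2, Gadd45a at -0.12 without fatigued PBMT replicate 1, and Trp53 at -0.12 with the replicate number as a block. Ccng1, the member with an unadjusted p under 0.05, had a slope of -0.44 (standard error 0.143, edgeR adjusted p = 0.452).

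No marker of other cells was called in this slope by edgeR. All 5 erythrocyte markers, led by Hbb-bs, had slopes above 0 (median 1.33), as had 4 of 5 endothelial markers, led by Cdh5 (median 0.30), with an edgeR adjusted p of 0.452 for Hbb-bs. The erythrocyte sum ran from 35.5 to 127 CPM in fatigued controls and from 50.1 to 124 CPM in fatigued PBMT mice, and the part of these cells in the slopes was not tested.

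In the 12 sedentary mice the signs were mostly the other way round. The slope was above 0 in 7 of the 9 members, with 0.83 for Cdkn1a (standard error 0.322), 0.70 for Sesn1 (standard error 0.208) and 0.51 for Gadd45a (standard error 0.273), and was lowest for Zmat3, at -0.40 (standard error 0.198). None of the 9 was called, against 0% of 14176 genes in edgeR, where 944 genes and 2 of the members (Cdkn1a and Sesn1) had an unadjusted p under 0.05. The edgeR adjusted p of both was 0.723. DESeq2 was not run for the sedentary slopes or for differences of slopes. The difference of the slopes, fatigued minus sedentary, was computed after the data had been seen. It was -1.47 for Cdkn1a (standard error 0.693), -0.92 for Sesn1 (standard error 0.426) and -0.64 for Ccng1 (standard error 0.217), and was called for 0 of the 9 members, against 0% of 15107 genes in edgeR, with 3 of the 9 and 1542 genes at an unadjusted p under 0.05. At this number of mice, neither a rise nor a fall of the targets with Trp63 passed the threshold in edgeR, and the intervals were wide, from -1.69 to 0.40 for Cdkn1a in fatigued mice.

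**Figure D2:**
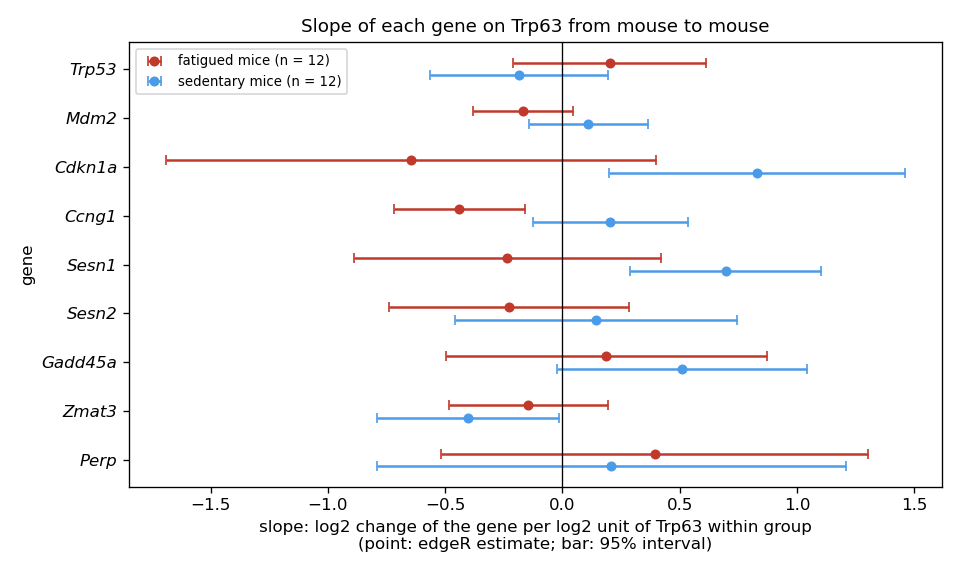
Slope of each of the 9 other members (y axis) on Trp63 within groups (x axis, log2 change per log2 unit of Trp63) in 12 fatigued and 12 sedentary mice, with the edgeR estimate as a point and its 95% interval as a bar. In fatigued mice 8 of the 9 intervals held 0, the exception being Ccng1 at -0.44, and none of the 9 slopes was called after adjustment.

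Since Cdkn1a varied so widely within groups, the same fit was made on Cdkn1a, chosen after its values had been seen. Over all 24 mice, 2 of the 8 members other than Trp63 and Cdkn1a were called, against 3.34% of 15107 genes in edgeR. Sesn1 rose by 0.54 per log2 unit of Cdkn1a (standard error 0.0753, edgeR adjusted p = 1.39e-04) and Gadd45a by 0.49 (standard error 0.0914, edgeR adjusted p = 0.00273). Both were called in each of the 24 fits that left out a mouse. Without the 2 mice farthest from the median of Cdkn1a the slopes were 0.56 for Sesn1 (edgeR adjusted p = 0.00544) and 0.53 for Gadd45a (edgeR adjusted p = 0.0409), within adjusted p-values of 3.20e-09 to 0.366 and 3.50e-05 to 0.338 over all alternatives. Trp53 went the other way, with a slope of -0.21 (standard error 0.0715, edgeR adjusted p = 0.113), and was the third of the 8 with an unadjusted p under 0.05. Trp63 itself had a slope of -0.01 on Cdkn1a over all mice (standard error 0.119), Mdm2 of 0.05 (standard error 0.0488) and Ccng1 of 0.06 (standard error 0.0728), and none of these was called.

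Within the projects the slopes of Sesn1 and Gadd45a were close, although the calls were not. In the fatigued mice 1 of the 8 was called, against 2.9% of 14573 genes in edgeR, namely Sesn1 at 0.56 (standard error 0.0844, edgeR adjusted p = 0.00380), while Gadd45a was at 0.45 (standard error 0.116, edgeR adjusted p = 0.0575). In the sedentary mice 0 of the 8 were called, against 0% of 14176 genes in edgeR, with 2 of the 8 and 1215 genes at an unadjusted p under 0.05, and the slopes were 0.50 for Sesn1 (standard error 0.136, edgeR adjusted p = 0.366) and 0.58 for Gadd45a (standard error 0.144, edgeR adjusted p = 0.338). The slope of Trp63 on Cdkn1a had opposite signs in the projects, -0.19 in fatigued mice (standard error 0.136) and 0.42 in sedentary mice (standard error 0.182), as had that of Perp, 0.22 (standard error 0.223) and -0.27 (standard error 0.369). The number of genes called over all 24 mice, 504, rested in part on fatigued control replicate 5, the mouse with the least Cdkn1a (13.3 CPM), and was 127 without it.

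**Figure D3:**
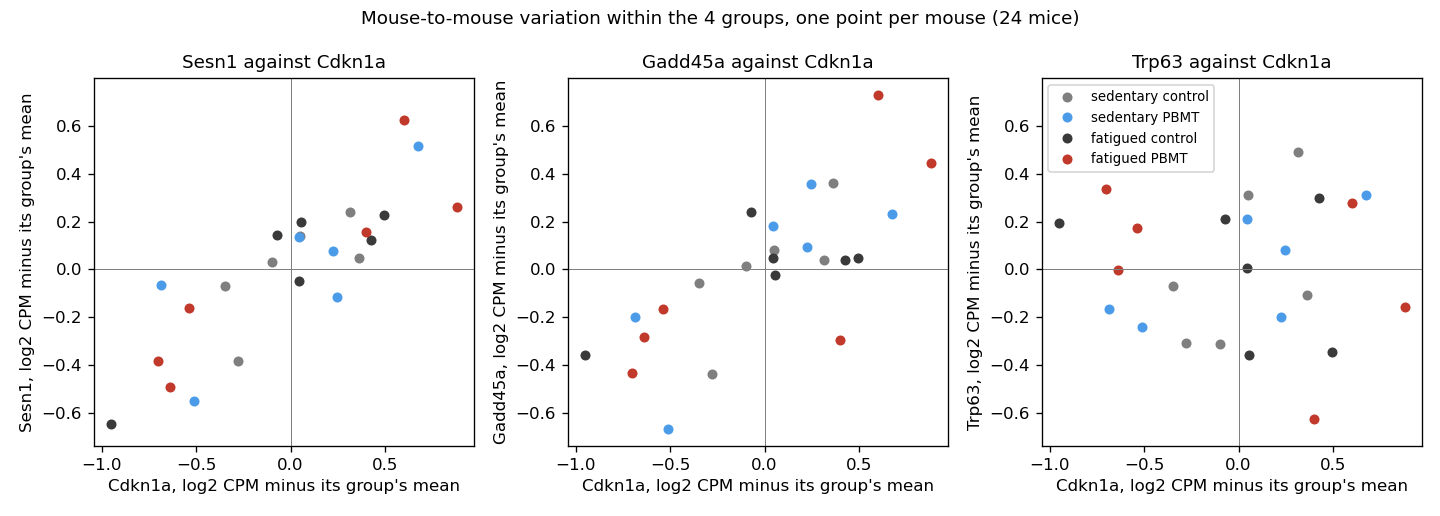
Levels of Sesn1, Gadd45a and Trp63 (y axes) against Cdkn1a (x axis) in 24 mice, each as log2 CPM minus the mean of the mouse's group, with points coloured by group. Sesn1 and Gadd45a rose with Cdkn1a (slopes of 0.54 and 0.49), and Trp63 had a slope of -0.01 over all mice, with opposite signs in fatigued (-0.19) and sedentary mice (0.42).

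Other genes of the pathway were examined by list, with no test between lists. Of 29 tested p53 targets that are not members, 6 were called in fatigued against sedentary controls (20.7%, 3 higher and 3 lower) and 8 in the PBMT mice (27.6%, 6 higher and 2 lower), close to the shares of all genes given above. Their median log2 change was 0.04 and 0.09. In the slope on Trp63 in fatigued mice 0 of 27 were called by edgeR, and in sedentary PBMT muscle 0 of 27.

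Targets of growth arrest were higher in fatigued muscle where they were called. Plk2, a polo-like kinase, rose by 0.97 among controls (edgeR adjusted p = 9.66e-04) and by 0.79 among PBMT mice (edgeR adjusted p = 0.00345), and was higher in 6 of 6 fatigued mice in both. The related kinase Plk3 rose by 1.98 among PBMT mice (edgeR adjusted p = 1.94e-04), and Btg2, an antiproliferative gene, by 1.34 (edgeR adjusted p = 0.0253). The call of Btg2 was lost in 3 of 24 fits that left out a mouse, and its value fell to 0.84 without fatigued PBMT replicate 3. These were 1 of 5 and 3 of 5 tested genes of that list. The shares were 20% among controls and 60% among PBMT mice, against 18.6% and 26.8% of all genes tested.

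Targets of repair and metabolism moved both ways. Those called were 36.4% of the list among controls and 45.5% among PBMT mice, against 18.6% and 26.8% of all genes tested. Among controls 4 of 11 were called, with Lpin1, a phosphatidate phosphatase, higher by 0.65 (edgeR adjusted p = 9.25e-05) and Ercc5, a nuclease of nucleotide excision repair, by 0.61 (edgeR adjusted p = 9.64e-04). Ddit4, an inhibitor of mTORC1, fell by 1.66 (edgeR adjusted p = 0.0327) and was lower in 6 of 6 mice, while Tigar, which lowers glycolytic flux, fell by 0.30 (edgeR adjusted p = 0.0343). Ddit4 and Tigar lost the call in 5 and 7 of 24 fits that left out a mouse. Among PBMT mice 5 of 11 were called, with Dram1, a regulator of autophagy, higher by 1.06, Ercc5 by 0.93 and Lpin1 by 0.68, and Tigar lower in 6 of 6 mice, by a log2 change of -0.68 (edgeR adjusted p = 0.0175, 4.65e-06, 3.25e-05 and 2.03e-05). The call of Dram1 was lost in 1 of 24 such fits, and its value fell to 0.65 without fatigued PBMT replicate 5.

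Of 13 apoptosis targets tested, 1 was called among controls, Trp53inp1, which fell by 0.71 (edgeR adjusted p = 0.0110), and 0 among PBMT mice. That was 7.69% and 0% of the list, against 18.6% and 26.8% of all genes tested. Of 14 regulators of p53, Mdm2 included, 2 were called among controls and 3 among PBMT mice. These were 14.3% and 21.4% of the list, against 18.6% and 26.8% of all genes tested. Trp53bp1, a DNA damage adaptor, was higher by 0.37 and 0.26 (edgeR adjusted p = 0.00881 and 0.0464), and the ubiquitin ligase Rchy1 lower, by log2 changes of -0.22 and -0.27 (edgeR adjusted p = 0.00989 and 0.00152). The damage kinase Atr was lower in PBMT mice by a log2 change of -0.34 (edgeR adjusted p = 0.0431). The second call of Trp53bp1 was lost in 15 of 24 fits that left out a mouse, and that of Atr in 10.

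Of 7 paralogs of the members, 1 was called among controls and 4 among PBMT mice. The shares were 14.3% and 57.1%, against 18.6% and 26.8% of all genes tested. Gadd45g, a paralog of Gadd45a, fell by 1.78 and 1.42 (edgeR adjusted p = 1.71e-05 and 1.00e-04), and every fatigued mouse lay below every sedentary mouse in both comparisons. Among PBMT mice Cdkn1c, a kinase inhibitor related to Cdkn1a, was higher by 0.81, and Ccng2 and Sesn3 were lower, with log2 changes of -0.43 and -0.27 (edgeR adjusted p = 0.0226, 0.00336 and 0.0460). The call of Sesn3 was lost in 16 of 24 fits that left out a mouse, and that of Cdkn1c in 2.

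Genes that p63 activates in epithelia were taken as a list beside Trp63. In the slope on Trp63 in fatigued mice their median was 0.04, and 0 of 8 tested were called by edgeR. In fatigued against sedentary controls 0 of 8 were called by edgeR. Vdr, the vitamin D receptor, was called among PBMT mice, at 0 to 9 counts in sedentary and 7 to 63 in fatigued mice (edgeR adjusted p = 0.00647).

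Targets of Atf4, a transcription factor of amino acid and endoplasmic reticulum stress, moved upwards where they were called, 4 of 9 in both comparisons. That was 44.4% of the list, against 18.6% of all genes tested among controls and 26.8% among PBMT mice. Atf3, a stress-induced transcription factor, rose by 4.28 among controls and 5.00 among PBMT mice (edgeR adjusted p = 5.50e-07 and 3.95e-08), from a median of 5.09 to 82.1 CPM and from 3.70 to 102 CPM. Asns rose by 0.90 and 1.07, Nupr1 by 0.70 and 0.91 and Ddit3 by 0.68 and 0.65. Nupr1 among controls lost its call in 9 of 24 fits that left out a mouse.

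In the slope on Cdkn1a over 24 mice, 4 of 29 other p53 targets were called, all higher with Cdkn1a (13.8%, against the 3.34% of all genes given above). Over the whole list 13 of 29 slopes were above 0, with a median of -0.01 against 0.00 for all genes tested. Ddit4 rose by 1.53 per log2 unit (edgeR adjusted p = 9.45e-04), Btg2 by 1.11 (edgeR adjusted p = 0.00718), Trp53inp1 by 0.45 (edgeR adjusted p = 0.0227) and Ercc5 by 0.26 (edgeR adjusted p = 0.0484). In the 24 fits that left out a mouse, Ddit4 was called in 24, Btg2 in 22, Trp53inp1 in 21 and Ercc5 in 7. Of the other lists, the damage kinase Chek2 was called lower with more Cdkn1a, with a slope of -0.47 (edgeR adjusted p = 0.0216). The paralogs Cdkn1c and Gadd45g rose by 0.55 and 0.52 and the Atf4 target Chac1 by 0.69 (edgeR adjusted p = 0.0373, 0.0182 and 0.0419). In the 24 fits these were called in 20 for Chek2, 18 for Cdkn1c, 23 for Gadd45g and 8 for Chac1. In all, 8 of 65 pathway genes outside the members were called, 7 higher and 1 lower. Without the 2 mice farthest from the median of Cdkn1a, Ddit4 was still called and the other 7 were not. Ddit4 and Trp53inp1 were thus lower in fatigued than in sedentary controls, yet higher in mice with more Cdkn1a within a group.

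The tissue label was checked against markers of the cell types that a dissected muscle can hold. The 10 myofiber markers summed to a median of 146927 CPM in sedentary controls, 163636 in sedentary PBMT mice, 205493 in fatigued controls and 197065 in fatigued PBMT mice, led by Myh4. Since p63 marks basal keratinocytes, 10 keratinocyte markers were examined beside Trp63. Their sum ran from 1.98 to 7.11 CPM in sedentary controls (median 3.06), from 1.78 to 32.6 in sedentary PBMT mice (median 2.72), from 1.84 to 4.88 in fatigued controls (median 2.10) and from 1.72 to 2.29 in fatigued PBMT mice (median 2.00), with Krt10 the most abundant. In all mice of a group, 3 of the 10 genes were at 0 in fatigued PBMT mice and 2 in fatigued controls. The highest sum, 32.6 CPM, came from a single sedentary PBMT mouse. The part of these cells in the level of Trp63 was not tested.

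Further lists of genes were measured beside the members, and their part in the results was not tested. Denervation-responsive genes, which fibers raise when they lose their nerve, were higher in fatigued muscle where called, 4 of 8 tested among controls and 5 of 8 among PBMT mice, with Runx1 up by 1.86 and 2.48 and Musk by 1.34 and 1.70. Their sum, led by Hdac4, had medians of 56.3 and 55.3 CPM in sedentary control and PBMT mice and of 79.9 and 96.6 CPM in the fatigued ones. Beside the lower Ccng1 of fatigued PBMT mice, 5 of 6 fibroblast and 4 of 6 myeloid markers were called higher. All 6 markers of both lists had changes above 0 against sedentary PBMT mice. In sedentary and fatigued PBMT mice the sums had medians of 605 and 1201 CPM for fibroblasts, led by Col3a1. For myeloid cells, led by Lyz2, these were 34.0 and 51.2 CPM. Among controls 0 of 6 in both lists were called. The sums were higher in fatigued controls as well, with medians of 826 and 1264 CPM for fibroblasts and 49.2 and 58.8 CPM for myeloid cells, 5 of 6 markers of both lists had changes above 0, and Pdgfra was higher in 6 of 6 mice. Of the 5 satellite cell markers, led by Cdh15, 1 was called among controls, higher, and 2 among PBMT mice, 1 higher and 1 lower. None of the 5 erythrocyte markers, led by Hbb-bs, was called in either. Myofiber markers were called higher in 5 of 10 among controls and 3 of 10 among PBMT mice, and endothelial markers in 1 and 2 of 5. Of 2 keratinocyte markers tested, 0 were called among controls and 1, lower, among PBMT mice. The shares of all genes called were 18.6% among controls and 26.8% among PBMT mice.

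Beside the slopes on Cdkn1a over 24 mice, 2 of 5 endothelial markers were called lower with more Cdkn1a, Kdr with a slope of -0.98 and Tek with -0.46 (edgeR adjusted p = 3.86e-05 and 0.00127), and 1 of 10 myofiber markers higher, Acta1 with 0.20 (edgeR adjusted p = 0.0220). The endothelial sum, led by Cdh5, had medians of 238, 247, 280 and 296 CPM in the 4 groups in that order, and none of its 5 markers was at 0. All 10 myofiber markers had slopes above 0 (median 0.20), and none of 6 myeloid and 5 erythrocyte markers had (medians -0.38 and -0.42). In fatigued PBMT mice the myofiber sum was 206328 to 212158 CPM in replicates 1, 2 and 3 and 174480 to 187802 CPM in replicates 4, 5 and 6, the division also seen for Cdkn1a. The part of these cells in the slopes was not tested.

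The genes most like Trp63 from mouse to mouse, by Pearson's r of log2 CPM centred within groups over the 24 mice, were Rpl17-ps10 (r = 0.775), a processed pseudogene, 0610037L13Rik (r = 0.758), Zfp112 (r = 0.731), a zinc finger gene, and Trmt13 (r = 0.723), a tRNA methyltransferase gene. Most opposite were Ttyh2 (r = -0.742) and Tlcd2 (r = -0.713). These were the extremes among all genes tested and are a description. Reads of Rpl17-ps10 may be shared with its parent gene.

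Because Cdkn1a, Sesn1 and Gadd45a moved together and Ccng1 was the member called, their promoters were read for the p53 consensus decamer, the sequence of 10 bases to which a pair of p53 family subunits binds and which is its own reverse complement, so that both strands were searched at once. Promoter windows of RefSeq (GRCm38.p6, 250 bases before to 50 after a gene's start) were held for 7 of the 10 members, and none for Trp63, Zmat3 and Perp. The decamer was in a window of 6 of the 7 (Trp53, Mdm2, Cdkn1a, Ccng1, Sesn1 and Gadd45a), 6 of 9 windows, and in 8.36% of all 32851 windows of that length. A pair of decamers at most 13 bases apart, as in a full p53 site, was in the upstream Cdkn1a window. It had 12 bases between the decamers. The other Cdkn1a window, at chr17:29093519-29093818, held no decamer. Such a pair was in 24 of all windows (0.0731%). The stretches around the matches are given 5′ to 3′ on the strand of the gene, with the decamer in capitals, for Cdkn1a at chr17:29090881-29090962, Sesn1 at chr10:41887241-41887300, Gadd45a at chr6:67037413-67037472 and Ccng1 at chr11:40755437-40755496. The first match began 73, 173, 40 and 185 bases before the RefSeq start to which the window belongs. For Sesn1 this is an internal start, inside the gene as placed above, and its window at the upstream start held no decamer. The Gadd45a match likewise lies inside the gene as placed above. Only exact matches to the consensus were marked. In the Cdkn1a stretch, the 10 bases right after the second decamer differ from the consensus at their first base alone and were not marked. A match is a description, not a site or a cause.
Cdkn1a: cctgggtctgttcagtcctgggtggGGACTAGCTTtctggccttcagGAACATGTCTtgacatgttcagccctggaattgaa
Sesn1: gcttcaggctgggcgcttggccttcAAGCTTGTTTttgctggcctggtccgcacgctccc
Gadd45a: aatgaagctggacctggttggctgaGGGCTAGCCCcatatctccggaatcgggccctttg
Ccng1: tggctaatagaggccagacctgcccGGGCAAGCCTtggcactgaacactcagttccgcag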

How the data were processed

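Poly(A)-selected, directional, paired-end libraries of left TA muscle, with 1 mouse per library, were analysed, grouped by the sample titles. The authors deposited whole-number counts of reads per Ensembl gene for each mouse, without normalization or pooling. The submitters' processing notes name Trimmomatic, STAR 2.7.1a, Picard 2.20.4, StringTie 2.0.4, featureCounts 1.6.0, HTSeq and the build GRCm38. Which tool counted, with which annotation and strand setting, is not given in the sources used here. Of 55487 identifiers, 55227 matched GENCODE M21, the source of symbols, coordinates and exon lengths.

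Counts were fitted in R 4.3.3 with edgeR 4.0.16 (TMM, filterByExpr with minimum count 10, robust quasi-likelihood tests, p adjusted by Benjamini-Hochberg within each fit, threshold 0.05), and the method was tested on simulated data. PBMT was compared with control within each project. Fatigued and sedentary mice and the difference of PBMT effects were compared in a fit to all 24 mice, and slopes used log2 CPM with a prior count of 2. Standard errors are the estimate divided by the root of its F statistic, and 95% intervals are normal ones, which can miss 0 where p was above 0.05. No pair of mice within a group agreed within sampling noise. At the depths given in the report, Perp had the fewest counts of the members (a median of 86.5) and the largest standard error in the sedentary comparison (0.258).

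Genes named are the members, up to 4 called genes with the largest change in each pathway list and comparison, the 4 genes most and 2 least like Trp63, and the markers. Members and lists were chosen with earlier results of these data known. Alternatives were DESeq2 1.42.0, its size factors in edgeR, no filter, a filter of 10 or more counts in all mice, the replicate number as a block, all mice in a single model, leaving out each mouse, and other sets of mice for the slopes. The slope on Cdkn1a, with its alternatives, and the difference of the Trp63 slopes were chosen after seeing the data. Treadmill, lactate and histology data were not analysed here. A gene result is not reported here.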

Additional observations from a re-analysis of the deposited data

Results flagged for a closer look

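Over the 40 combinations of member and group, 2 held a mouse that stood apart from the other 5, both for Mdm2. Sedentary control replicate 3 had 51.1 CPM of Mdm2, below the 59.0 to 62.7 CPM of the others, and fatigued control replicate 4 had 67.4 CPM, above the 56.6 to 59.1 CPM of the others. Chance flags about 1 in 20 groups.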

How the results depend on the processing

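No call of a member other than Trp63 in the comparisons of groups or in the slope on Trp63 was gained or lost with the size factors of DESeq2, no filter, the stricter filter or DESeq2. Of the pathway and denervation-responsive genes called, 12 of 17 among controls, 18 of 26 among PBMT mice and 0 of 8 in the slope on Cdkn1a passed in every alternative, and markers of cell types were not followed through the alternatives. The number of genes called for PBMT in sedentary muscle was 4, but 16 with no filter, 60 with DESeq2, 1 with all 24 samples in a single model, and 2 to 20 when a mouse was left out. It was 2 without sedentary control replicate 1, 2 or 6, 18 without control replicate 4, and 10, 7 and 20 without PBMT replicates 2, 4 and 5. In fatigued muscle it was 0, but 2 with DESeq2, Trp63 among them, which is no test of Trp63 since it was chosen on these groups. The difference of PBMT effects was called in 1 gene, and in 3 without sedentary PBMT replicate 2. In fatigued against sedentary controls, 0 to 1 members were called when a mouse was left out, 1 without fatigued control replicate 3 or sedentary control replicate 4.

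The slope on Trp63 in fatigued muscle was called for 0 genes, but for 35 with DESeq2. In sedentary mice only, slopes of opposite sign were found for Trp53 (-0.18), Mdm2 (0.11), Cdkn1a (0.83), Ccng1 (0.20), Sesn1 (0.70) and Sesn2 (0.14), and in all 24 mice for Sesn1 (0.16). Without the 2 mice farthest from the median of Trp63 the sign changed for Sesn2 (0.0849), Gadd45a (-0.16) and Perp (-0.45). The slope on Cdkn1a in all 24 mice was called for 504 genes, but for 758 with DESeq2, 0 in sedentary mice only, 70 without the 2 mice farthest from the median of Cdkn1a and 127 to 681 when a mouse was left out, 127 without fatigued control replicate 5. Of its 2 members called, 1 was left in fatigued mice only and 0 in sedentary mice only. The sign changed in sedentary mice only for Ccng1 (-0.0406) and Perp (-0.27), and for Perp without the 2 farthest mice (-0.23).

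Leaving out a mouse changed the sign of small values. For PBMT in sedentary muscle the range was -0.0549 to 0.21 for Cdkn1a and -0.0960 to 0.12 for Sesn1. For PBMT in fatigued muscle it was -0.0744 to 0.10 for Trp53, -0.0727 to 0.0542 for Ccng1, -0.12 to 0.12 for Sesn1, -0.0965 to 0.0867 for Sesn2 and -0.0603 to 0.20 for Perp. In fatigued against sedentary controls it was -0.0342 to 0.0265 for Mdm2, -0.17 to 0.00823 for Sesn2 and -0.0546 to 0.16 for Perp, and among PBMT mice -0.0620 to 0.0881 for Trp53. For the slope on Trp63 it was -0.35 to 0.0941 for Sesn2, -0.12 to 0.38 for Gadd45a and -0.38 to 0.66 for Perp, and for the slope on Cdkn1a -0.0441 to 0.20 for Perp.

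The replicate number was also fitted as a block. Pairing was checked by the correlation of mice with the same number, which lay between -0.0715 and 0.0664 for the sedentary groups and between -0.0846 and 0.325 for the fatigued groups. In the fatigued groups 4 of 6 correlations were over 0.1 and 3 of 6 mice matched their own number best, a hint from the data. As not every correlation was over 0.1, the numbers were not taken as pairs. With the replicate block PBMT was called for 11 genes in sedentary and 1, again Trp63, in fatigued muscle, and the slope on Trp63 for 2 and on Cdkn1a for 305. The sign changed for Trp53 in the slope on Trp63 (-0.12) and, under the entry Perp, slope on Cdkn1a in all 24 mice, to -0.0374. With the block in 12 fatigued mice the slope on Trp63 was imprecise, at 3.44 for Perp, -0.95 for Ccng1 and -0.44 for Mdm2, none of them called. The causes of these differences were not tested.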
